A study of Mus musculus with 6 samples.

Results

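The collagen gene family was followed in hearts of mouse fetuses of 2 embryonic stages, day 16.5 (E16.5) and day 18.5 (E18.5). The rule for membership used the gene name and no measured value: every protein-coding gene called Col, a number, the letter a and a number. It found 44 of the 31529 genes measured. They were divided into 8 fibrillar genes, 6 basement membrane genes (type IV), 6 cartilage genes (types II, IX and XI) and 24 others. All hearts came from wild-type ICR mice, an outbred stock, and the stage was the only difference the labels give between the 2 groups of 3 libraries. The design text calls the libraries of a stage biological replicates, and the labels do not say how many hearts entered a library or how litters were spread, so the p-values measure the spread between these 6 libraries.

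Collagens are secreted proteins whose chains wind around each other in a stiff helix, and they form much of the extracellular matrix. In the heart, fibroblasts lay down fibrils of types I, III and V between the muscle cells, type VI makes beaded filaments at the cell surface, and type IV forms a mesh in the basement membrane around each muscle cell and vessel. Types II, IX and XI build the fibrils of cartilage and are also made in heart valves, where the matrix shares features with cartilage.

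The estimated counts summed to between 61443414 and 77237333 per library, and genes of the mitochondrial chromosome took from 19.9% to 41.4% of them. E16.5 replicate 2, with the lowest mitochondrial share, correlated more closely with the E18.5 libraries (0.953 to 0.964, log2 CPM) than with the other E16.5 libraries (0.946 and 0.947). Levels are given as scaled FPKM, the deposited fragments per kilobase and sequencing depth corrected for composition between libraries, which can be compared between genes and between libraries. Heart muscle genes were high in every library, with Tnnt2, the cardiac troponin T, at 562 to 730.2 scaled FPKM. Differences between stages were tested on the counts with the edgeR quasi-likelihood test, adjusted over 19959 genes by the Benjamini-Hochberg method.

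Fibrillar and type VI collagens were mostly higher at E18.5 than at E16.5, and cartilage and transmembrane collagens were mostly lower. Fibrillar genes had a median log2 change of 0.55 with 7 of 8 higher, and cartilage genes a median of -0.90 with 5 of 6 lower, beside a median of -0.0019 over all genes tested. Col1a1, a chain of type I collagen, was 1.73-fold higher, Col6a3, a chain of type VI collagen, 1.93-fold higher, and Col2a1, the chain of cartilage type II collagen, 3.73-fold lower. No collagen passed the test over all genes. In bulk samples such as these, fewer cells of a type and less RNA per cell cannot be told apart.

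Of the 44 collagens, 42 had enough counts to be tested. Among them 0 passed at an adjusted p under 0.05, where 0.15% of all genes did (0.0952% higher and 0.0551% lower). The log2 change was above 0 in 22 of the 42, and in 49.8% of all genes. At an unadjusted p under 0.05, 11 collagens were higher and 9 lower, 47.6% of those tested, beside 9.53% of all genes (4.83% higher and 4.7% lower). The 3 libraries of E18.5 lay wholly above those of E16.5 in 13 collagens and wholly below in 13, and over all genes tested these arrangements took 8.45% and 8.02%. DESeq2 called 5 collagens, Col2a1, Col6a3, Col9a2, Col9a3 and Col5a3, where it called 2.39% of the genes with an adjusted p. Without E16.5 replicate 2, edgeR called 3, namely Col6a3 (adjusted p = 0.0340), Col9a2 (0.0380) and Col2a1 (0.0431), and 1.78% of all genes. At an unadjusted p under 0.05 without that library there were 23 of the 44 collagens, 17 of them among the 20 found with all libraries. The share over all genes in that fit was 23.4%. The count of higher collagens at an unadjusted p under 0.05 dropped to 7 without E16.5 replicate 1, 7 without E16.5 replicate 3, 5 without E18.5 replicate 1, 4 without E18.5 replicate 2 and 6 without E18.5 replicate 3.

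**Figure D1:**
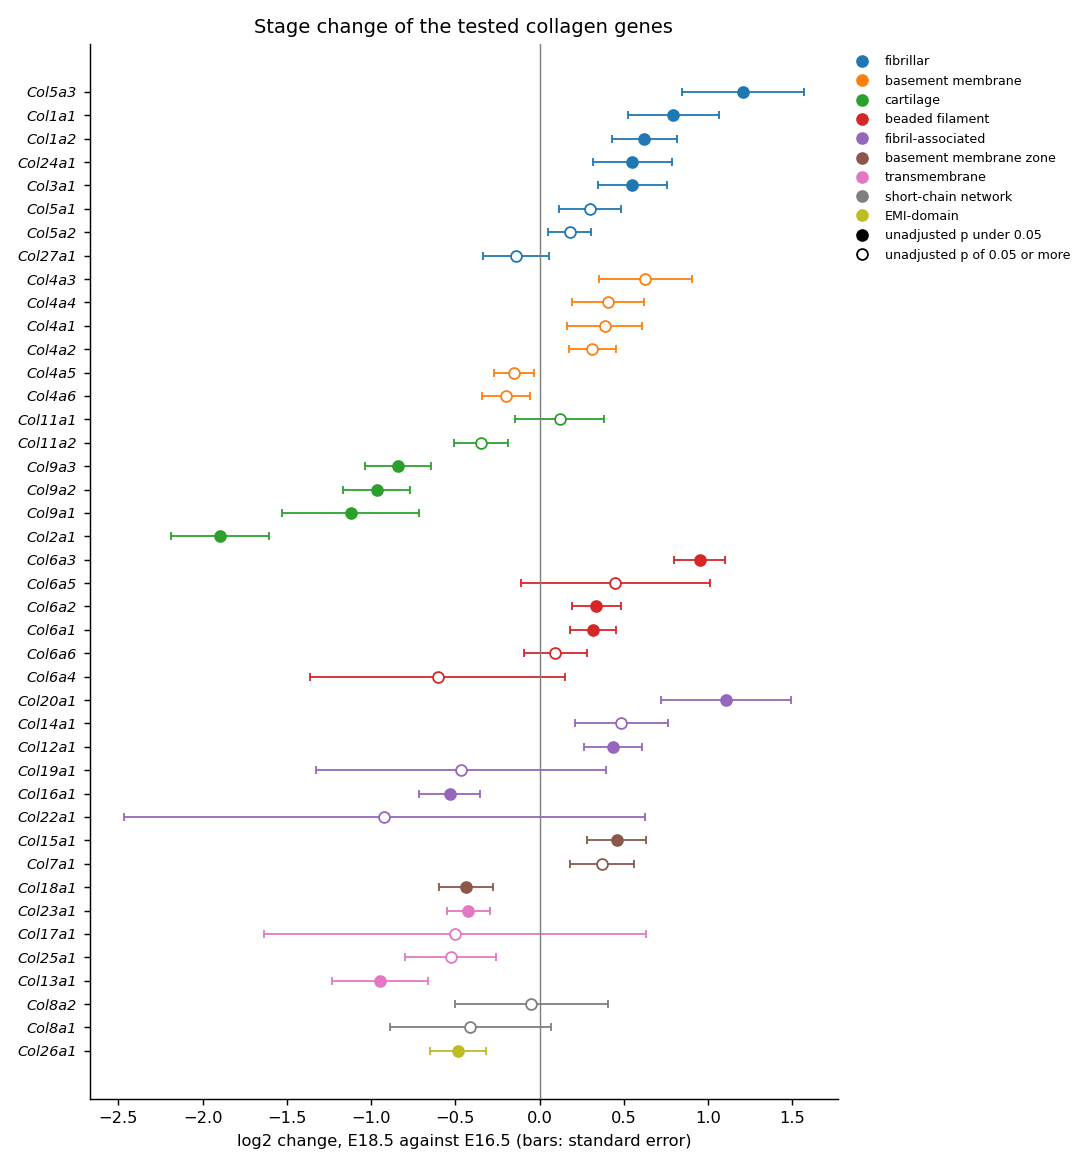
Log2 change between E18.5 and E16.5 with its standard error for the 42 collagens tested, ordered by group, with filled points at an unadjusted p under 0.05. Positive values are higher at E18.5: the fibrillar genes lie to the right of 0 except Col27a1, and the cartilage genes to the left except Col11a1.

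The fibrillar chains Col1a1 and Col3a1 held the highest levels. Col1a1 (ENSMUSG00000001506, GRCm38 chromosome 11, 94936224 to 94953042) encodes the alpha 1 chain of type I collagen, the main fibril of scar, skin and bone, and was the most abundant collagen in the fetal heart. It stood at 59.1, 121 and 103 scaled FPKM in E16.5 replicates 1, 2 and 3 and at 176, 185 and 130.1 in E18.5 replicates 1, 2 and 3. All E18.5 libraries were above all E16.5 libraries, and E16.5 replicate 1 was far below the others. Its mean was 94.3 ± 31.7 at E16.5 and 164 ± 29.4 at E18.5 (SD, n = 3). The log2 change was 0.79 ± 0.27 (SE), with an unadjusted p of 0.0179 and an adjusted p of 0.402. Col1a2 (ENSMUSG00000029661, GRCm38 chromosome 6, 4504814 to 4541544), the partner chain of the same fibril, stood at 24.6, 35.8 and 34.9 scaled FPKM in E16.5 replicates 1, 2 and 3 and at 51.8, 53.9 and 41.0 in E18.5 replicates 1, 2 and 3. The stages did not overlap here either, and the log2 change was 0.62 ± 0.19 (unadjusted p = 0.0116, adjusted p = 0.364). Col3a1 (ENSMUSG00000026043, GRCm38 chromosome 1, 45311538 to 45349706), the chain of the thinner type III fibrils of vessels and soft tissues, stood at 67.7, 97.2 and 100.1 scaled FPKM in E16.5 replicates 1, 2 and 3 and at 142, 139.6 and 106 in E18.5 replicates 1, 2 and 3. E16.5 replicate 3 and E18.5 replicate 3 lay next to each other, and the log2 change was 0.55 ± 0.20 (unadjusted p = 0.0265, adjusted p = 0.447).

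Type V chains, which sit inside type I fibrils and set their width, were uneven. Col5a1 stood at 12.2, 18.6 and 15.5 scaled FPKM at E16.5, against 17.3, 21.8 and 17.8 at E18.5. Col5a2 stood at 7.99, 8.98 and 7.97 scaled FPKM at E16.5, against 8.75, 10.1 and 9.38 at E18.5. The stages overlapped in both genes, whose log2 changes were 0.30 ± 0.18 and 0.18 ± 0.13 (unadjusted p = 0.143 and 0.193). Col5a3, the least abundant of the 3 type V genes, stood at 0.786, 0.554 and 0.270 scaled FPKM in E16.5 replicates 1, 2 and 3 and at 1.37, 1.35 and 0.996 in E18.5 replicates 1, 2 and 3. Every E18.5 library was above every E16.5 library, with a mean of 0.537 ± 0.259 at E16.5 and 1.24 ± 0.212 at E18.5 (SD, n = 3). Its log2 change of 1.21 ± 0.36 was the largest increase among the collagens tested (unadjusted p = 0.00934, adjusted p = 0.350; DESeq2 adjusted p = 0.0497, and up to 0.819 over the alternatives, without E18.5 replicate 2). The minor fibrillar gene Col24a1 stood at 0.329, 0.486 and 0.460 scaled FPKM at E16.5, against 0.555, 0.685 and 0.631 at E18.5 with a log2 change of 0.55 (unadjusted p = 0.0458). Col27a1 stood at 5.09, 3.24 and 5.44 scaled FPKM at E16.5, against 4.17, 4.01 and 4.31 at E18.5, with overlapping stages and a log2 change of -0.14 (unadjusted p = 0.489).

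**Figure D2:**
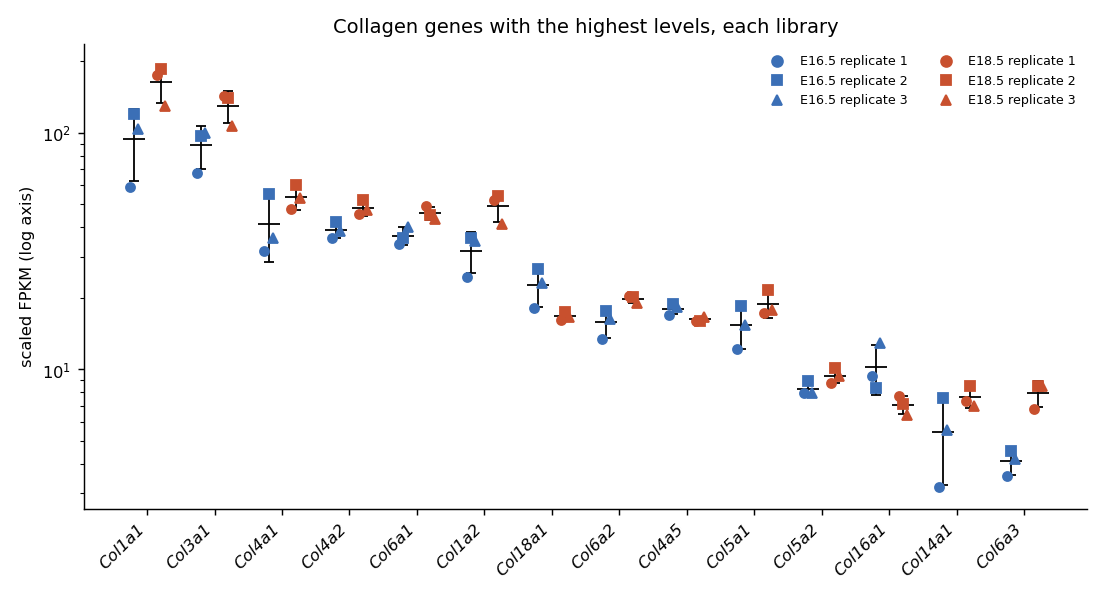
Scaled FPKM on a log axis for the 14 collagens with the highest mean level, 1 point per library, with the mean and SD of each stage in black. Col1a1 and Col3a1 lie above the rest, and E16.5 replicate 1 (blue circle) is the lowest E16.5 library for Col1a1, Col3a1, Col1a2 and Col6a3.

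Type VI collagen links cells to the fibrils around them and is assembled from chains encoded by Col6a1, Col6a2 and another, variable chain, most often Col6a3. Col6a3 (ENSMUSG00000048126, GRCm38 chromosome 1, 90765923 to 90843971) stood at 3.56, 4.55 and 4.20 scaled FPKM in E16.5 replicates 1, 2 and 3 and at 6.79, 8.5 and 8.49 in E18.5 replicates 1, 2 and 3. The lowest E18.5 library was well above the highest E16.5 library. Its mean was 4.10 ± 0.501 at E16.5 and 7.93 ± 0.986 at E18.5 (SD, n = 3), and the log2 change was 0.95 ± 0.15. The unadjusted p was 0.000210 and the adjusted p 0.0931, the smallest among the collagens that were higher. Without E16.5 replicate 2 the adjusted p of Col6a3 was 0.0340, and with DESeq2 it was 1.31e-05. With any other library left out it was 0.181 to 0.418, and with limma on log2(FPKM + 1) and log2(FPKM + 0.1) it was 0.447 and 0.472. Col6a1 stood at 33.8, 36.1 and 40.0 scaled FPKM at E16.5, against 48.9, 44.8 and 43.3 at E18.5. Col6a2 stood at 13.4, 17.6 and 16.4 scaled FPKM at E16.5, against 20.5, 20.3 and 19.0 at E18.5. Both genes were higher in every E18.5 library than in any E16.5 library, by a log2 change of 0.32 ± 0.13 and 0.34 ± 0.15 (unadjusted p = 0.0440 and 0.0478, adjusted p = 0.504 and 0.517). Of the alternatives to Col6a3, Col6a6 was at 2.63, 2.91 and 3.33 scaled FPKM at E16.5, against 3.94, 3.05 and 2.48 at E18.5 with overlapping stages and a log2 change of 0.09 (unadjusted p = 0.630), while Col6a4 (0.0177 to 0.177) and Col6a5 (0.0507 to 0.185) had overlapping stages.

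Ratios between chains were compared in 7 pairs. The ratio of Col6a3 to Col6a1 in deposited FPKM was 0.105, 0.126 and 0.105 at E16.5, against 0.139, 0.190 and 0.196 at E18.5, going from 0.112 ± 0.0121 to 0.175 ± 0.0314 (SD, n = 3). All E18.5 ratios exceeded all E16.5 ratios, with an exact two-sided permutation p of 0.1, the smallest that 3 libraries against 3 allow, and a Benjamini-Hochberg adjusted p of 0.7 over 7 ratios. The ratio of Col6a1 to Col6a2 went from 2.34 ± 0.256 to 2.29 ± 0.0889, with an exact permutation p of 0.9. The ratio of Col1a1 to Col1a2, chains of 1 fibril, was 2.40, 3.37 and 2.96 at E16.5, against 3.39, 3.43 and 3.17 at E18.5 (exact permutation p = 0.2), and that of Col1a1 to Col3a1 was 0.873, 1.24 and 1.03 at E16.5, against 1.24, 1.33 and 1.22 at E18.5 (exact permutation p = 0.3). In both ratios E16.5 replicate 2 lay within the range of the E18.5 libraries. The ratio of Col5a1 to Col5a2 went from 1.84 ± 0.284 to 2.01 ± 0.130 and that of Col4a1 to Col4a2 from 1.04 ± 0.241 to 1.11 ± 0.0538, with exact permutation p of 0.5 and 0.6. For Col8a1 and Col8a2, the chains of type VIII, the ratio was 0.592, 0.300 and 0.342 at E16.5, against 0.128, 0.257 and 0.498 at E18.5 (exact permutation p = 0.4). Adjusted p were 0.7 to 0.9 over the 7 ratios.

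The windows before the start sites of 4 collagens are printed to show the sequence in front of members at each end of the change. They are, in each direction, the 2 members of smallest unadjusted p with an entry in the RefSeq table of start sites and no annotated exon in the window: Col6a3 and Col5a3, higher at E18.5, and Col13a1 and Col23a1, lower. Each is the 150 bases directly before the RefSeq start on GRCm38.p6, 5′ to 3′ on the gene's strand. Capitals mark matches on either strand to CCAAT, the box bound by the factor NF-Y, to GGGCGG, the GC box bound by Sp1, and to TATAAA.
Col6a3 (GRCm38.p6 chr1:90843972-90844121, minus strand): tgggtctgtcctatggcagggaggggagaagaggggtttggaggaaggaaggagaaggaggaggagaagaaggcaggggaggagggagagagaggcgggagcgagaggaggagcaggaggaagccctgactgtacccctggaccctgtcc
Col5a3 (GRCm38.p6 chr9:20815068-20815217, minus strand): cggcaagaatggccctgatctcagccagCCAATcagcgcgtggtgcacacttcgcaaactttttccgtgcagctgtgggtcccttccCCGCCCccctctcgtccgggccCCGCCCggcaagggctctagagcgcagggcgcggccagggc
Col13a1 (GRCm38.p6 chr10:61979109-61979258, minus strand): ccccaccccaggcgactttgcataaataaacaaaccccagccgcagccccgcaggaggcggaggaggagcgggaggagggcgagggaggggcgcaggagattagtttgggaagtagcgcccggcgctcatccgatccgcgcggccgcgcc
Col23a1 (GRCm38.p6 chr11:51289770-51289919, plus strand): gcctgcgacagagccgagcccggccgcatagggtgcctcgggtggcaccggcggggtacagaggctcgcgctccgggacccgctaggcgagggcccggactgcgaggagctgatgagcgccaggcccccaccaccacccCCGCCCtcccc
The window of Col5a3 held 1 CCAAT, which began 122 bases before the start, and 2 matches to GGGCGG. That of Col23a1 held 1 GGGCGG, and those of Col6a3 and Col13a1 held 0 matches to any of the motifs. Over all 32851 windows of this length, 24.5% held CCAAT, 28.6% GGGCGG and 7.57% TATAAA, counting both strands and matches that overlap another motif. Of the 38 windows of 35 collagens, 8 held CCAAT, 19 GGGCGG and 4 TATAAA. Windows of Col1a1, Col2a1, Col4a3, Col5a2, Col9a3, Col12a1, Col14a1, Col22a1 and Col26a1 were not used here.

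Cartilage collagens were low throughout, and 5 of 6 were lower in every E18.5 library than in any E16.5 library, an arrangement found in 8.02% of all genes. Col2a1 (ENSMUSG00000022483, GRCm38 chromosome 15, 97975602 to 98004695), the fibril chain of cartilage, stood at 0.824, 0.842 and 0.664 scaled FPKM in E16.5 replicates 1, 2 and 3 and at 0.256, 0.131 and 0.238 in E18.5 replicates 1, 2 and 3. The E16.5 libraries were close together, and each lay far above every E18.5 library. Its mean was 0.776 ± 0.0979 at E16.5 and 0.209 ± 0.0676 at E18.5 (SD, n = 3), and the log2 change of -1.90 ± 0.29 was the largest decrease among the collagens tested. The unadjusted p was 0.000151 and the adjusted p 0.0734, the smallest of all collagens. It passed with DESeq2 (adjusted p = 3.76e-07) and with the mitochondrial share as a term in edgeR (adjusted p = 0.0301), and without E16.5 replicate 2 its adjusted p was 0.0431. It did not pass with any other library left out (0.177 to 0.272) or with limma, where the adjusted p was 0.343 on log2(FPKM + 0.1) and 0.313 on log2(FPKM + 1). On the last scale, which understates the change of low genes, its log2 change was -0.53.

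The 3 chains of type IX, which coats type II fibrils, were lower as well. Col9a2 (ENSMUSG00000028626, GRCm38 chromosome 4, 121039385 to 121055322), the most abundant cartilage collagen gene here, stood at 5.43, 3.72 and 4.99 scaled FPKM in E16.5 replicates 1, 2 and 3 and at 2.84, 2.16 and 2.23 in E18.5 replicates 1, 2 and 3. E16.5 replicate 2 was the E16.5 library closest to the E18.5 values, which it still exceeded. The log2 change was -0.97 ± 0.20 (unadjusted p = 0.00108, adjusted p = 0.164), and the adjusted p was 0.0380 without E16.5 replicate 2 and 0.00231 with DESeq2. Over all alternatives it went up to 0.627, without E18.5 replicate 2. Col9a3 stood at 1.81, 1.99 and 1.53 scaled FPKM at E16.5, against 1.05, 0.934 and 0.987 at E18.5, with E18.5 libraries that lay close together below all E16.5 libraries. Its log2 change was -0.84 ± 0.20 (unadjusted p = 0.00237, adjusted p = 0.216). Col9a1 stood at 0.518, 1.14 and 0.603 scaled FPKM at E16.5, against 0.296, 0.503 and 0.235 at E18.5, where E16.5 replicate 2 was high and E16.5 replicate 1 barely exceeded E18.5 replicate 2. Its log2 change was -1.12 ± 0.41 (unadjusted p = 0.0235, adjusted p = 0.432).

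The type XI genes, whose protein sits inside cartilage fibrils, differed from each other. Col11a2 stood at 2.66, 2.37 and 3.06 scaled FPKM at E16.5, against 2.16, 2.34 and 1.86 at E18.5, lower at E18.5 without overlap by a narrow gap, with a log2 change of -0.35 ± 0.16 (unadjusted p = 0.0621). Col11a1 stood at 0.233, 0.396 and 0.364 scaled FPKM at E16.5, against 0.383, 0.404 and 0.292 at E18.5 with overlapping stages and a log2 change of 0.12 ± 0.26 (unadjusted p = 0.662). Summed over the 6 cartilage genes, the level was 11.5, 10.4 and 11.2 at E16.5, against 6.99, 6.47 and 5.84 at E18.5.

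**Figure D3:**
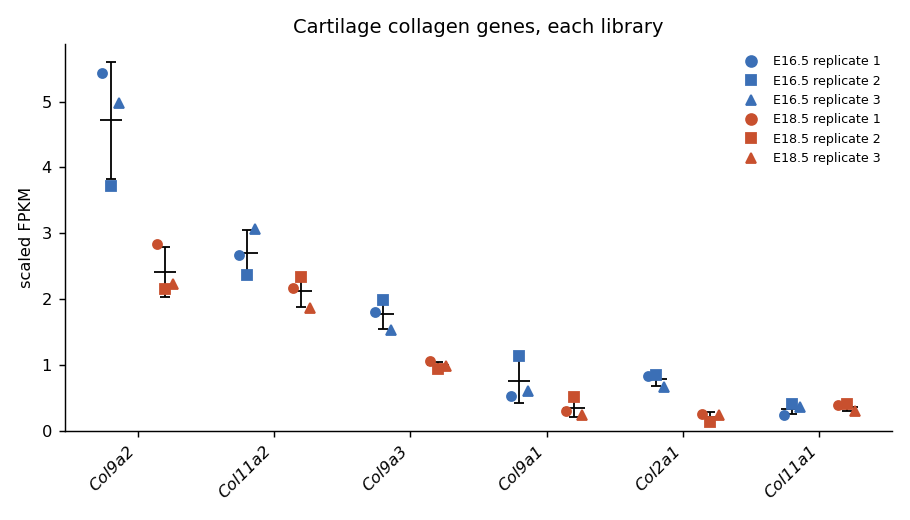
Scaled FPKM of the 6 cartilage collagen genes, 1 point per library, with the mean and SD of each stage in black. The E16.5 libraries (blue) lie above the E18.5 libraries (red) for Col9a2, Col11a2, Col9a3, Col9a1 and Col2a1, and the stages overlap for Col11a1.

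The 6 chains of basement membrane type IV collagen lie in 3 pairs that start next to each other on opposite strands. Their starts lie 21 bases apart for Col4a1 and Col4a2 on chromosome 8, 72 for Col4a3 and Col4a4 on chromosome 1, and 1309 for Col4a5 and Col4a6 on chromosome X (GRCm38). Members of a pair had log2 changes of the same sign, and 0 of the 6 genes reached an unadjusted p under 0.05. Col4a1, which with Col4a2 makes the common form of the mesh, stood at 31.7, 55.3 and 35.9 scaled FPKM in E16.5 replicates 1, 2 and 3 and at 47.5, 60.1 and 53.0 in E18.5 replicates 1, 2 and 3. E16.5 replicate 2 was above 2 of the E18.5 libraries, and the log2 change was 0.39 ± 0.22 (unadjusted p = 0.119). With 1 library left out its log2 change ranged from 0.22, without E16.5 replicate 1, to 0.66, without E16.5 replicate 2. Col4a2 stood at 36.0, 41.8 and 38.6 scaled FPKM at E16.5, against 45.3, 52.2 and 47.1 at E18.5, with every E18.5 library above every E16.5 library, and had a log2 change of 0.31 ± 0.14 (unadjusted p = 0.0505, adjusted p = 0.524).

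Col4a3 and Col4a4, chains of the kidney and lung type IV network, were scarce. Col4a3 stood at 0.313, 0.193 and 0.199 scaled FPKM at E16.5, against 0.413, 0.332 and 0.348 at E18.5, and Col4a4 at 0.428, 0.353 and 0.302 scaled FPKM at E16.5, against 0.488, 0.475 and 0.473 at E18.5. Both were higher in all E18.5 libraries, with log2 changes of 0.63 ± 0.28 and 0.41 ± 0.21 (unadjusted p = 0.0509 and 0.0905). Col4a5 and Col4a6, which form a network with each other around smooth muscle, were lower in all E18.5 libraries. Col4a5 stood at 17.0, 19.0 and 18.3 scaled FPKM at E16.5, against 16.1, 16.0 and 16.7 at E18.5, and Col4a6 at 1.78, 1.88 and 1.81 scaled FPKM at E16.5, against 1.66, 1.69 and 1.42 at E18.5. Their log2 changes were small at -0.15 ± 0.12 and -0.20 ± 0.14 (unadjusted p = 0.244 and 0.197).

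The basement membrane zone collagens XV and XVIII, close relatives that carry sugar chains, were at opposite sides. Col18a1, the source of the fragment endostatin, stood at 18.1, 26.6 and 23.3 scaled FPKM in E16.5 replicates 1, 2 and 3 and at 16.2, 17.5 and 16.6 in E18.5 replicates 1, 2 and 3. The E18.5 libraries lay close together below all E16.5 libraries, and the log2 change was -0.44 ± 0.16 (unadjusted p = 0.0267, adjusted p = 0.449). Col15a1 stood at 4.48, 5.73 and 4.30 scaled FPKM at E16.5, against 5.51, 7.83 and 6.58 at E18.5, with a log2 change of 0.46 ± 0.17 (unadjusted p = 0.0290, adjusted p = 0.456) although E16.5 replicate 2 exceeded E18.5 replicate 1. Col7a1, the anchoring fibril of skin, stood at 0.725, 0.640 and 0.903 scaled FPKM at E16.5, against 0.939, 1.11 and 0.878 at E18.5 with a log2 change of 0.37 (unadjusted p = 0.0882).

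Collagens that bind to the surface of fibrils went both ways. Col16a1 stood at 9.42, 8.35 and 13.0 scaled FPKM in E16.5 replicates 1, 2 and 3 and at 7.69, 7.13 and 6.44 in E18.5 replicates 1, 2 and 3, lower in every E18.5 library, with a log2 change of -0.53 ± 0.18 (unadjusted p = 0.0176, adjusted p = 0.399). Col14a1 stood at 3.18, 7.60 and 5.58 scaled FPKM at E16.5, against 7.34, 8.51 and 7.03 at E18.5 with overlapping stages and a log2 change of 0.48 ± 0.28 (unadjusted p = 0.116). Col12a1, which like type XIV is found where tissue bears tension, stood at 0.771, 0.780 and 0.850 scaled FPKM at E16.5, against 0.862, 1.24 and 1.15 at E18.5 with a log2 change of 0.43 ± 0.17 (unadjusted p = 0.0340, adjusted p = 0.478). Col20a1 stood at 0.464, 1.01 and 1.54 scaled FPKM at E16.5, against 2.70, 1.95 and 1.83 at E18.5, a log2 change of 1.11 ± 0.39 (unadjusted p = 0.0203, adjusted p = 0.422). That value is given as uncertain: the gene shares 79 exon bases, 1.54% of its own, with BX649560.1 on the same strand, which held 106% of its level in CPM, and the part of those reads in the change was not tested. Col19a1 (0.0118 to 0.0505) and Col22a1 (0 to 0.0894) were near 0 in all libraries.

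Transmembrane collagens had a log2 change below 0 in 4 of 4 genes, and in 3 of them the stages did not overlap. Over all genes tested, 49.8% had a log2 change above 0 and 8.02% were lower at E18.5 without overlap. Col13a1, found at cell contacts with the matrix and at the neuromuscular junction, stood at 1.72, 1.78 and 1.85 scaled FPKM in E16.5 replicates 1, 2 and 3 and at 1.34, 0.809 and 0.606 in E18.5 replicates 1, 2 and 3. The E16.5 libraries lay close together and the E18.5 libraries spread below them. The log2 change was -0.95 ± 0.29 (unadjusted p = 0.00982, adjusted p = 0.353). Col23a1 stood at 4.57, 4.95 and 5.16 scaled FPKM at E16.5, against 3.54, 3.93 and 3.49 at E18.5 with a log2 change of -0.42 ± 0.13 (unadjusted p = 0.00991, adjusted p = 0.353). Col25a1 stood at 0.302, 0.347 and 0.362 scaled FPKM at E16.5, against 0.238, 0.300 and 0.162 at E18.5, also without overlap, with a log2 change of -0.53 ± 0.27 (unadjusted p = 0.0859). Col17a1, the collagen of skin hemidesmosomes, ranged from 0 to 0.162 with overlapping stages and a log2 change of -0.50 ± 1.13 (unadjusted p = 0.670). Col26a1, outside the other classes, stood at 1.62, 1.82 and 1.40 scaled FPKM at E16.5, against 1.21, 1.02 and 1.22 at E18.5 with a log2 change of -0.49 ± 0.17 (unadjusted p = 0.0178, adjusted p = 0.401). The type VIII genes Col8a1 (0.0516 to 0.200) and Col8a2 (0.196 to 0.667), which make a short-chain network under endothelium, overlapped between stages. Too few counts for a test were found for Col10a1, the marker of hypertrophic cartilage (counts of 0, 5, 0 at E16.5, against 4, 0, 12 at E18.5), and for Col28a1 (counts of 23, 6, 0 at E16.5, against 0, 8, 8 at E18.5).

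By level, 10 collagens had a mean of at least 10 scaled FPKM over the 6 libraries, 15 lay between 1 and 10 and 19 below 1. The 6 most abundant, Col1a1, Col3a1, Col4a1, Col4a2, Col6a1 and Col1a2, made up 70.1% ± 2.53 at E16.5 and 77.7% ± 1.67 at E18.5 (SD, n = 3) of the summed collagen level. That sum was 376, 536 and 497 at E16.5, against 649, 683 and 555 at E18.5 in scaled FPKM, with E18.5 replicate 3 only slightly above E16.5 replicate 2. Fibrillar genes made up 51.5% ± 3.62 at E16.5 and 59.6% ± 3.24 at E18.5 of it, basement membrane genes 21.5% ± 2.10 at E16.5 and 19.3% ± 2.13 at E18.5 and cartilage genes 2.42% ± 0.570 at E16.5 and 1.02% ± 0.0686 at E18.5. Other collagens made up 24.7% ± 1.86 at E16.5 and 20.1% ± 1.38 at E18.5. The share of fibrillar genes was higher in every E18.5 library, and those of cartilage genes and of other collagens were lower. Each of these 3 shares had an exact permutation p of 0.1, the smallest possible here. The basement membrane shares overlapped (exact permutation p = 0.3). In percent of the deposited FPKM of all genes, collagens were at 0.0453, 0.127 and 0.0740 at E16.5, against 0.0985, 0.133 and 0.112 at E18.5, an order in which E16.5 replicate 2 stood second. With mitochondrial genes left out of the total, the values were 0.112, 0.209 and 0.164 at E16.5, against 0.214, 0.252 and 0.206 at E18.5. There E16.5 replicate 2 exceeded only replicate 3 of the E18.5 libraries.

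**Figure D4:**
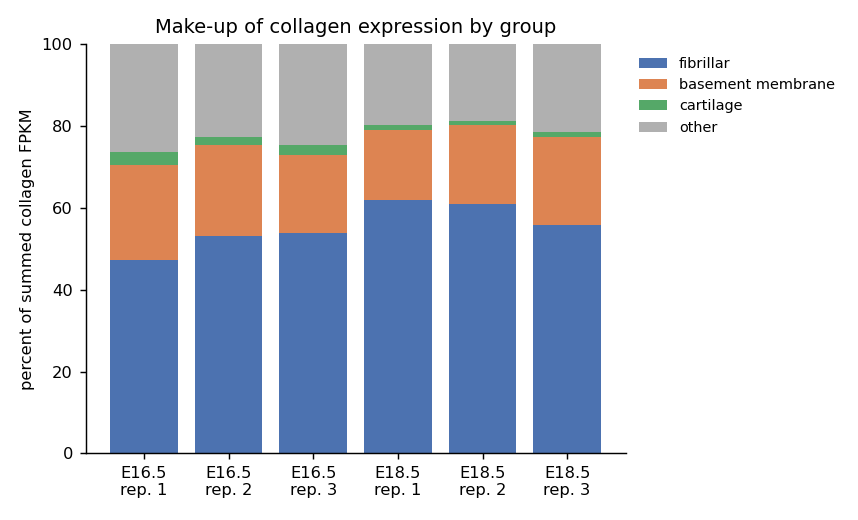
Percent of the summed collagen FPKM held by each group, 1 bar per library. The fibrillar part (bottom) is between 47.3% and 53.9% at E16.5 and between 55.9% and 61.9% at E18.5. The thin cartilage part and the part of other collagens (top) are smaller in each E18.5 library.

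Genes that make, cross-link, sense and break down collagen were described by the same fit, with 0 of them passing over all genes. DESeq2 called 1 gene of modification and export, 2 of cleavage and cross-linking, 1 receptor and 1 breakdown gene, where it called 2.39% of all genes with an adjusted p. For modification, folding and export of the chains, 16 of 22 genes were higher (median log2 change 0.12), and 3 higher and 0 lower had an unadjusted p under 0.05, or 13.6% beside 9.53% of all genes. These 3 were the prolyl hydroxylase P4ha2 (6.12, 6.35 and 5.43 scaled FPKM at E16.5, against 10.04, 7.74 and 10.2 at E18.5, log2 change 0.65 ± 0.15) and the lysyl hydroxylases Plod1 (0.41 ± 0.12) and Plod2 (0.45 ± 0.17). The collagen chaperone Serpinh1 (HSP47) stood at 134, 201 and 209 scaled FPKM at E16.5, against 196, 205 and 173 at E18.5 with a log2 change of 0.08 ± 0.19. In this last gene E16.5 replicate 1 was the lowest library and the stages overlapped.

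For cleavage of the propeptides and cross-linking, 12 of 14 tested genes were higher (median 0.39). An unadjusted p under 0.05 was reached by 5 that were higher and 0 that were lower, or 35.7% beside 9.53% of all genes. All 3 enzymes that trim the amino end of procollagens were among them, Adamts2 (1.61, 1.68 and 1.72 scaled FPKM at E16.5, against 2.86, 2.93 and 2.25 at E18.5, log2 change 0.68 ± 0.15), Adamts3 (0.311, 0.484 and 0.328 scaled FPKM at E16.5, against 0.641, 1.02 and 0.976 at E18.5, 1.23 ± 0.29) and Adamts14 (0.54 ± 0.21). Lox, the lysyl oxidase that cross-links collagen and elastin, stood at 5.05, 8.89 and 10.8 scaled FPKM at E16.5, against 16.7, 16.3 and 12.5 at E18.5 with a log2 change of 0.88 ± 0.26 (unadjusted p = 0.00972). In each of these 4 genes all E18.5 libraries lay above all E16.5 libraries, an arrangement found in 8.45% of all genes. Tgm2, a transglutaminase, had a log2 change of 0.34 ± 0.12.

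Among collagen receptors, 8 of 11 were higher (median 0.21), with 2 higher at an unadjusted p under 0.05, or 18.2% beside 4.83% of all genes higher. They were Adgrg1, an adhesion receptor that binds type III collagen (0.632, 0.649 and 0.597 scaled FPKM at E16.5, against 1.40, 1.08 and 1.24 at E18.5, log2 change 0.98 ± 0.20), and the integrin chain Itga1 (0.37 ± 0.15). Of the genes of collagen breakdown and its inhibitors, 9 of 15 were higher (median 0.07). An unadjusted p under 0.05 was found for 1 gene, or 6.67% beside 9.53% of all genes. That gene was the metalloproteinase inhibitor Timp4, which was scarce at 0.0589, 0.0324 and 0.0360 scaled FPKM at E16.5, against 0.371, 0.265 and 0.134 at E18.5 with a log2 change of 2.56 ± 0.53 (adjusted p = 0.164). The collagenases Mmp8 (0.0439 to 0.328) and Mmp13 (0 to 0.146) were near 0 in all libraries.

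Cell type markers also differed between libraries. Fibroblast markers were higher in 10 of 11 genes (median log2 change 0.24), with sums of 193 to 266 at E16.5 and 247 to 304 at E18.5 and 0 of the 11 at 0 in any library. Only Dpt, a small matrix protein, had an unadjusted p under 0.05 among them (0.63 ± 0.18), and the fibroblast factor Tcf21 had a log2 change of 0.26 ± 0.13. Markers of heart muscle cells were higher in 10 of 11 (median 0.26, 1 at an unadjusted p under 0.05) and endothelial markers in 6 of 8 (median 0.23, 2 at an unadjusted p under 0.05). Over all genes tested, 49.8% were higher and 9.53% had an unadjusted p under 0.05. The latter share was 9.09% for fibroblast and for heart muscle markers and 25% for endothelial markers. The median deviation of fibrillar collagens from the mean of all libraries was -0.54, -0.09, -0.15 at E16.5, against 0.26, 0.41, 0.08 at E18.5. That of fibroblast markers was -0.24, 0.02, -0.25 at E16.5, against 0.08, 0.20, 0.13 at E18.5. In both, E16.5 replicate 2 was the highest E16.5 library and E18.5 replicate 2 the highest of all. The same order was found for endothelial markers (-0.32, 0.09, -0.10 at E16.5, against 0.06, 0.21, 0.07 at E18.5). It also held for epicardial markers and basement membrane collagens, but not for markers of heart muscle cells or of smooth muscle and pericytes. Markers of smooth muscle and pericytes were higher in 8 of 10 (sums of 217 to 247 at E16.5 and 294 to 331 at E18.5), and epicardial markers in 9 of 10 (sums of 48.9 to 53.4 at E16.5 and 70.5 to 87.7 at E18.5), of which Krt19, a keratin of the epicardium, passed over all genes. An unadjusted p under 0.05 was found for 4 of the former and 5 of the latter, all higher, of 10 in each list and beside 4.83% of all genes. In these lists 0 genes were at 0 in any library. Their part in the collagen differences was not tested.

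Beside the cartilage collagens, chondrocyte markers were scarce and went no single way. Of 10 listed, 8 were measured and 5 tested, with 3 higher and 2 lower, and sums of 2.20 to 5.75 at E16.5 and 2.78 to 3.95 at E18.5. Acan, the main cartilage proteoglycan, was at 0.145, 0.236 and 0.835 scaled FPKM at E16.5, against 0.861, 0.583 and 0.392 at E18.5, and Matn3, a cartilage matrix protein, was listed at 0 in E16.5 replicate 3 and every E18.5 library. Cnmd and Ucma, also cartilage markers, were listed at 0 in 3 and 4 of the 6 libraries. Valve mesenchyme markers were lower in 5 of 8, with sums of 27.0 to 29.9 at E16.5 and 25.9 to 27.2 at E18.5, which overlapped. The 3 that were higher were Scx (log2 change 0.21), Cthrc1 (0.21) and Tbx20 (0.0066). An unadjusted p under 0.05 was found for 2 that were lower and 0 that were higher, beside 4.7% of all genes lower. Sox9, the factor that drives Col2a1 in cartilage and is expressed in valves, was at 4.10, 2.98 and 3.84 scaled FPKM at E16.5, against 2.96, 2.65 and 2.66 at E18.5 (log2 change -0.40 ± 0.17, unadjusted p = 0.0418), and Adamts19, a protease of the valves, at 5.03, 5.49 and 4.49 scaled FPKM at E16.5, against 3.99, 4.14 and 3.57 at E18.5 (log2 change -0.36 ± 0.13, unadjusted p = 0.0260). Neither passed over all genes (adjusted p = 0.499 and 0.444), and the part of these markers in the difference of the cartilage collagens was not tested.

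**Figure D5:**
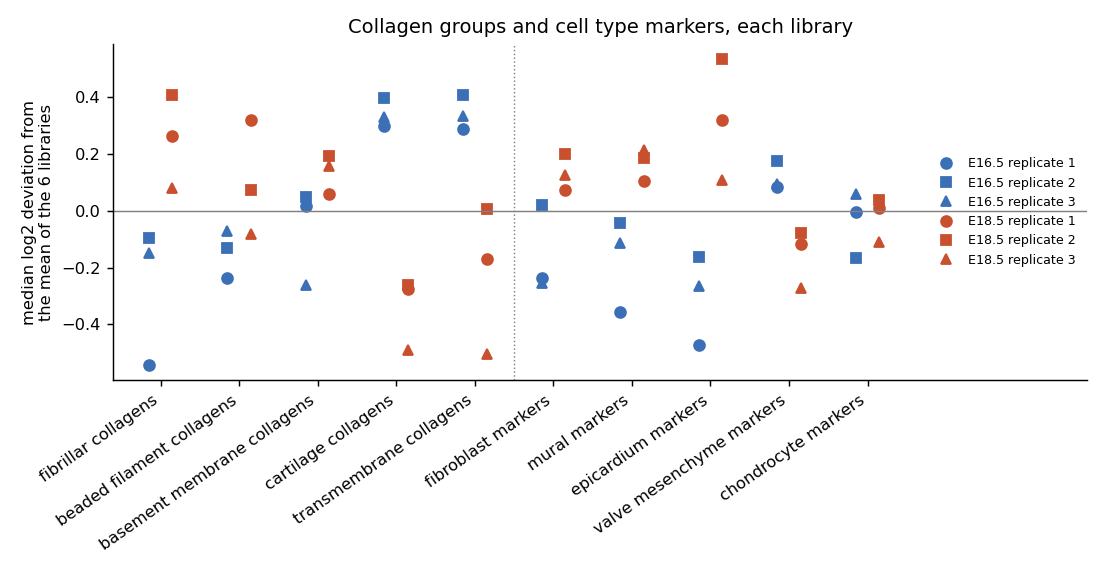
Median log2 deviation from the mean of the 6 libraries for 5 collagen groups (left of the dotted line) and 5 lists of cell type markers (right), 1 point per library. The stages separate for fibrillar, cartilage and transmembrane collagens and for fibroblast, mural, epicardial and valve markers, narrowly for basement membrane collagens, and overlap for beaded filament (type VI) collagens and chondrocyte markers.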

How the data were processed

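Poly(A) RNA from hearts was sequenced in 6 stranded paired-end libraries with molecular identifiers, per the labels' protocols. The submitters' processing notes name StringTie 1.3.4d, HISAT2 2.0.4, cutadapt 1.9 and UMI-tools beside the build mm9, without their roles, and do not say whether identifiers and strand entered the counting. The authors deposited 1 table with an estimated count and an FPKM per gene and library, both used as deposited apart from rounding the counts to whole numbers. The coordinates of that table were not used, and positions are those of GENCODE M21 (GRCm38) by Ensembl identifier, where all 44 members matched.

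Counts were fitted with edgeR 4.0.16 (R 4.3.3; filterByExpr, TMM factors, glmQLFit and glmQLFTest), with stage as the only term and p adjusted over 19959 genes. Standard errors came from the size of each log2 change over the root of its F statistic. Scaled FPKM is the deposited FPKM times 1 factor per library that puts it on the TMM scale. Ratios of 2 genes and group shares of the collagen sum were compared by exact two-sided permutation. The 16 alternatives were DESeq2 1.42.0, limma 3.58.1 on log2 of FPKM plus 0.1 or 1, other scalings and filters, the mitochondrial genes left out or their share as a term, the replicate number as a block, and each library left out. The scripts were tested on simulated data. There 6% of genes given a 1.5-fold change and 40% of those given a 2-fold change passed at an adjusted p under 0.05. For changes of 3-fold and 4-fold it was 62% and 94%.

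Per-library values, a log2 change and an unadjusted p were given for 25 members. These were members with an adjusted or unadjusted p under 0.05, members with a mean FPKM of at least 10 in either stage and the 2 most abundant of each group. Of the other lists only some genes were described. Markers of macrophages, bone, Schwann cells and autonomic neurons, skeletal muscle and thymus were looked up but not described. The members, groups and lists were chosen with earlier results of these data known. Precision is limited by the 3 libraries per stage and, for scarce genes, by their counts.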

Additional observations from a re-analysis of the deposited data

How the results depend on the processing

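With 3 libraries per stage the smallest exact permutation p is 0.1. The scarcest collagens rest on few counts, such as Col19a1 (6 to 26 per library) and Col22a1 (0 to 62). Other collagens below 1 scaled FPKM had more, such as Col12a1 (802 to 1444). The 25 members chosen by p, level or group, as given above, kept the sign of their log2 change under each of the 16 alternatives in which they were fitted. Col2a1, Col9a1 and Col24a1 were not fitted with genes of mean FPKM of at least 1, a level they did not reach. Over all genes, 30 passed with all libraries, 403 with DESeq2, 184 with the mitochondrial share as a term, 18 and 10 with limma on log2(FPKM + 0.1) and log2(FPKM + 1), and 8 to 371 with 1 library left out. Collagens that passed numbered 5 with DESeq2, 3 with the mitochondrial share as a term and 0 to 3 with 1 library left out, where without E16.5 replicate 2 gave the 3. Those that passed with the mitochondrial term in edgeR were Col6a3 (adjusted p = 0.0116), Col2a1 (0.0301) and Col9a2 (0.0313). At an unadjusted p under 0.05, higher collagens numbered 5 and 6 with limma at pseudocounts of 0.1 and 1 and 4 to 14 with 1 library left out, and lower collagens numbered 4 at either pseudocount. edgeR with stage as the only term gave median log2 changes of 0.11 for all collagens, 0.35 for basement membrane and -0.23 for other collagens. With genes of mean FPKM of at least 1, which leaves fewer genes, the median was 0.29, 0.070 and 0.32, the last of opposite sign. With limma at pseudocounts of 0.1 and 1 it was -0.75 and -0.39 for cartilage and 0.016 and -0.0036 for other collagens, and 0.16 for basement membrane at 1. It was 0.22 and 0.20 for modification and export genes, and 0.28 for receptors at 0.1. With 1 library left out, medians ranged from -0.037 to 0.25 for all collagens, -0.96 to -0.72 for cartilage, -0.32 to 0.079 for other collagens, 0.039 to 0.21 for modification and export, 0.26 to 0.62 for cleavage and cross-linking and 0.19 to 0.30 for receptors. DESeq2 called 1 gene of modification and export, 2 of cleavage and cross-linking, 1 receptor and 1 breakdown gene, the mitochondrial term called 1 breakdown gene, and leaving out 1 library called 0 to 2 breakdown genes. Log2 differences of ratios crossed 0 with 1 library left out, from -0.00096 to 0.22 for Col5a1 to Col5a2, -0.0033 to 0.29 for Col4a1 to Col4a2 and -0.12 to 0.033 for Col6a1 to Col6a2. The cause of these differences was not tested.

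Replicate numbers are shared between stages, and deviations of same-numbered libraries correlated at 0.102, 0.185 and -0.0663 for numbers 1, 2 and 3, not above 0.1 in every pair, and not every library correlated best with its own number. Whether a number marks a shared litter or day is not stated in the labels, so the libraries were not treated as pairs. With the replicate block 1 collagen passed, Col6a3, and the median of other collagens was 0.069, against -0.23 with stage as the only term.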

Other observations

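Genes of lung epithelium were measurable in every heart library. Sftpc, a surfactant protein of alveolar cells, was at 53.0, 40.7 and 31.9 scaled FPKM at E16.5, against 29.8, 29.8 and 57.7 at E18.5, and Scgb1a1, a secretory protein of the airway, at 143, 71.1 and 77.1 scaled FPKM at E16.5, against 75.6, 72.9 and 117 at E18.5. Their list of 6 genes summed to 206, 118 and 115 at E16.5, against 111, 109 and 185 at E18.5, with E16.5 replicate 1 and E18.5 replicate 3 the highest of their stages. The 3 E16.5 libraries and the 3 E18.5 libraries overlapped in that sum. Liver genes such as Alb (16.6, 6.48 and 18.2 scaled FPKM at E16.5, against 11.0, 4.19 and 23.4 at E18.5) were present too. Fibrillar collagens summed to 178, 285 and 268 at E16.5, against 402, 416 and 311 at E18.5, an order in which the same 2 libraries were the lowest of their stages. The part of the lung and liver genes in the collagen differences was not tested.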
